A study of Sus scrofa with 6 samples.

Results

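The nuclear genes for the subunits of the oxidative phosphorylation machinery were followed in neonatal pig Sertoli cells (NPSC) kept in culture and exposed to human complement. Members were all listed genes outside the mitochondrial chromosome whose pig symbol has the form used for subunits of the 5 complexes (the NDUF subunit symbols, the SDH, UQCR and ATP5 symbols, CYC1, and the COX symbols of subunits 4 to 8) and that had at least 10 counts summed over the 6 libraries. The symbols also take in ATP5IF1, an inhibitory factor of ATP synthase, which is counted with complex V. Of the 25149 genes listed, 11804 had a symbol, 43 of these matched the symbols and 41 reached the minimum. They comprise 18 genes of complex I, 3 of complex II, 6 of complex III, 8 of complex IV and 6 of complex V. A further 29 symbols of the same form have identifiers that were not analysed here, so each complex is covered in part.

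Oxidative phosphorylation passes electrons from NADH (complex I) and succinate (complex II) through ubiquinone, complex III and cytochrome c to complex IV, where oxygen is reduced. The proton gradient that complexes I, III and IV build drives ATP synthesis in complex V. Most subunits are encoded in the nucleus and imported, and a small number are encoded in mitochondrial DNA, so the complexes need the products of both genomes. Sertoli cells, the nurse cells of the seminiferous tubule, are known for turning much of their glucose into lactate that they pass to germ cells.

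The libraries came from NPSC of wild-type (WT) Duroc-Landrace pigs, isolated from testes and cultured. Cells had been plated in DMEM with 10% FBS, and part of this medium was replaced by plain DMEM for the 3 baseline NPSC libraries or by pooled human serum with active complement, in equal volume to the medium left, for the 3 complement NPSC libraries, for 90 min. The serum and the complement in it cannot be told apart in this design. All 6 cultures were prepared by the same enzymatic isolation, in which testes were pooled by litter and cells other than Sertoli cells can remain. The paper names 3 litters, and which plate came from which litter is not stated. Where nothing ties a library to an animal, p-values measure only the spread between these libraries.

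Library totals ranged from 6796183 to 8371923 counts in baseline NPSC and from 3641518 to 6403606 in complement NPSC. Olfactory receptor genes, which Sertoli cells are not known to need, gave a measure of counts that fall on exons without specific expression. In CPM (counts scaled by library size) per kilobase, baseline replicates 1, 2 and 3 had densities of 2.15, 1.20 and 1.18, and complement replicates 1, 2 and 3 had densities of 4.01, 4.43 and 1.51. Expected background below is this density times the exon length of a gene. Of the 12 Sertoli cell markers chosen 9 were matched, and their summed level was 4477 to 7176 CPM in baseline NPSC and 2918 to 3535 CPM in complement NPSC. CLU, GATA4, WT1 and INHA had all complement libraries below all baseline libraries (beside 8.14% of all tested genes) and KRT18 had them above (beside 8.95%). None was called in edgeR at an adjusted p under 0.05. At an unadjusted p under 0.05, 4 of the 9 were lower (beside 4.28%) and 2 were higher (beside 10.9%). Their median log2 fold change was −0.60, and −0.44 after subtraction of the expected background. Of 6 Leydig cell markers 4 were matched (936 to 1139 against 713 to 760 CPM, CYP11A1 at 0). The 3 that were tested all had complement libraries below all baseline libraries (beside 8.14% of all tested genes). All 5 peritubular myoid markers were matched (2458 to 3722 against 1912 to 3569 CPM, MYH11 at 0). The matched markers of macrophages (5 of 7, 68.3 to 109 against 55.2 to 81.7 CPM), endothelial cells (3 of 5, 367 to 556 against 256 to 608 CPM) and germ cells (4 of 5, 33.5 to 42.1 against 27.4 to 48.2 CPM) overlapped between conditions in summed level, and 1 macrophage marker, LYZ (8.93 ± 5.21 against 1.78 ± 1.34 CPM), was the one marker called in DESeq2. In a bulk library, fewer cells of a type and less RNA per cell cannot be told apart. The part of the cell types and of the background in the values below was not tested, except where a value with the background removed is given.

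At baseline, the median transcript level was highest for the subunits of complexes IV and V and lowest for those of complex I. Levels between genes are given as CPM per kilobase of exon, with SD over 3 libraries. For 39 of the 41 members less than 50% of the counts were expected background, and the median baseline level of these was 45.3 CPM per kilobase. By complex, the median level was 29.6 for complex I (17 genes), 45.3 for complex II (3 genes), 62.3 for complex III (6 genes), 107 for complex IV (7 genes) and 82.8 for complex V (6 genes). Within a complex, whose subunits are mostly built in at equal numbers outside the head and rotor ring of ATP synthase, the highest transcript level exceeded the lowest 5.76-fold in complex I, 1.40-fold in complex II, 4.13-fold in complex III, 2.66-fold in complex IV and 4.87-fold in complex V. Over all 39 members this ratio was 14.1. A ratio of highest to lowest tends to grow with the number of genes, which differed between the complexes.

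ATP5F1A, the alpha subunit of the catalytic head of ATP synthase, had the highest level at 197 ± 54.4 CPM per kilobase (SD, n = 3). It was followed by COX8A, a small subunit of cytochrome c oxidase, at 184 ± 29.3, and by NDUFA4, named for complex I but a component of complex IV, at 173 ± 23.2. The spreads of these 3 levels overlap, so their order is not resolved. In complex V the next was ATP5PO, the peripheral stalk subunit that holds the catalytic head, at 111 ± 15.2 CPM per kilobase, and the lowest was ATP5ME, the membrane subunit e, at 40.5 ± 9.65. Complex III was led by UQCRC1 at 86.7 ± 17.1, one of the core proteins that face the matrix, and by UQCR10, a small subunit, at 76.0 ± 15.9. The other core protein, UQCRC2, was the lowest of complex III at 21.0 ± 2.89 CPM per kilobase, although both core proteins are present in the complex in equal number.

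In complex I the membrane arm subunits NDUFB9 (80.4 ± 16.7 CPM per kilobase) and NDUFB8 (50.7 ± 6.95) were highest, and the catalytic matrix arm subunit NDUFV1, which binds NADH, stood at 23.8 ± 0.0916. NDUFS6, a zinc-binding accessory subunit, was the lowest complex I member above background at 14.0 ± 3.65. The 3 measured subunits of complex II, the iron-sulfur protein SDHB (51.7 ± 8.12) and the membrane anchors SDHD (45.3 ± 11.4) and SDHC (36.8 ± 2.31), lay closest together. NDUFA6 at 1.76 and NDUFA4L2 at 1.63 CPM per kilobase had an expected background of 92.5% and 135% of their counts, so no level of their own can be read. SDHA, the flavoprotein of complex II, and NDUFB10, a membrane arm subunit, are listed on unplaced scaffolds with 0 counts in all 6 libraries, where 155 and 166 counts of background would be expected. A 0 on such a row gives no level, since reads may have been assigned elsewhere. The order of the 39 members was nearly the same in complement NPSC (Spearman's rho 0.987 over 39 genes, a description over genes of the same 6 libraries).

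**Figure D1:**
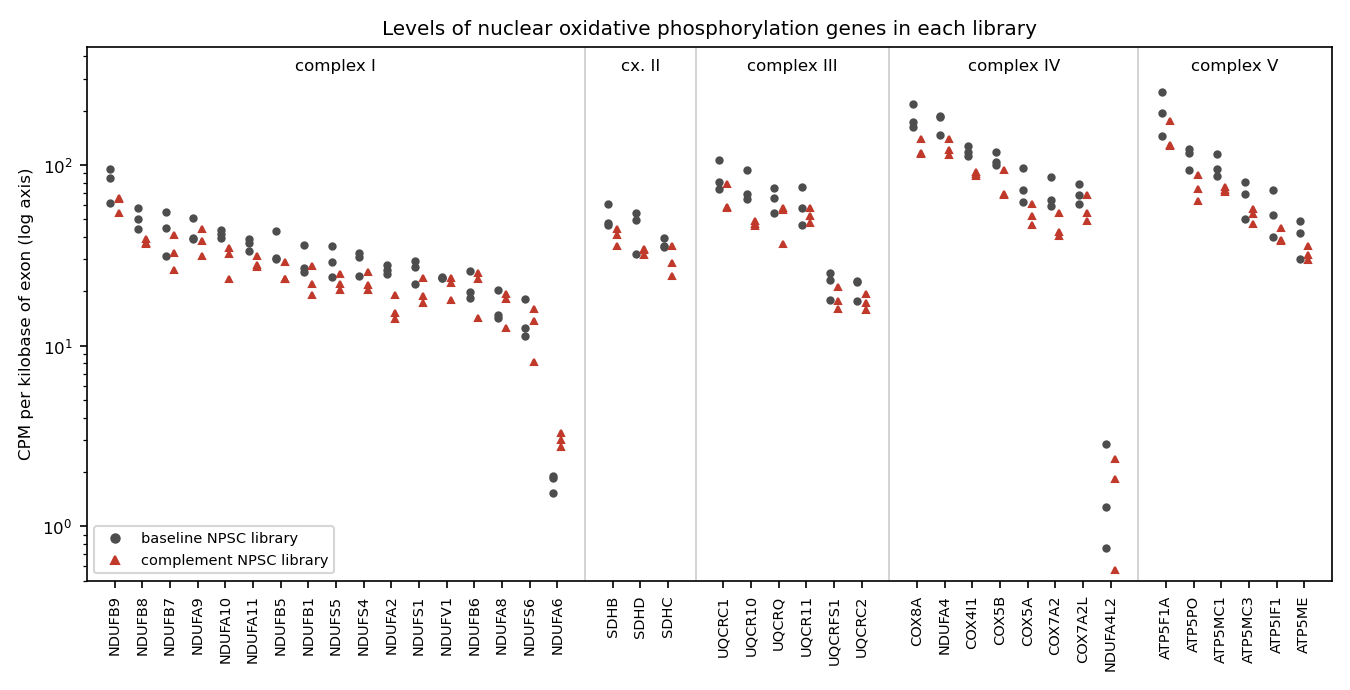
Level of 40 of the 41 genes in each library, in CPM per kilobase of exon on a log axis, grouped by complex and ordered by baseline mean (grey circles, baseline NPSC; red triangles, complement NPSC). The triangles of most genes lie at or below the circles, complexes IV and V reach the highest levels, and NDUFA6 and NDUFA4L2 lie apart near the background.

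The main comparison asked how these genes differed after 90 min with complement. In edgeR's quasi-likelihood test 0 of the 41 members passed an adjusted p under 0.05, beside 0.103% of the 17512 genes tested, and the smallest adjusted p of a member was 0.267. DESeq2's Wald test also called 0 members, beside 0.383% of genes, and had 11 lower at an unadjusted p under 0.05, beside 4.38%. The fitted log2 fold changes nevertheless lay on one side, with 39 of 41 below 0 (95.1%, beside 48.5% of all tested genes). Their median was −0.39, with quartiles at −0.45 and −0.27, against 0.02 over all tested genes. At an unadjusted p under 0.05, 11 members were lower in complement NPSC (26.8%, beside 4.28% of all genes) and 0 were higher (beside 10.9%). In 15 members every complement library lay below every baseline library (36.6%, beside 8.14%), and in 1, NDUFA6, every complement library lay above (beside 8.95%). After subtraction of the expected background, which 39 members allowed, 0 members were called (beside 0.206% of genes), 34 log2 fold changes were below 0 (beside 50.3%), the median was −0.19, 1 member had an unadjusted p under 0.05 (beside 3.56% of genes) and in 9 the complement libraries all lay lower (beside 8.3%). In 32 of the 39 the log2 fold change became smaller in size by over 1.5 times. The count of 11 also moved to between 1, without baseline replicate 3, and 24, without complement replicate 3 (beside 1.62% and 17.8% of all genes). Without complement replicate 3 edgeR called 3 members, ATP5PO, COX5B and COX8A, beside 10.1% of all genes, and the count of 15 without overlap became 29 (beside 27.1%). Without baseline replicate 1 that count was 30 (beside 20.3%), and groups of fewer libraries overlap less often for any gene. With the replicate numbers as a block, a pairing that the labels do not state, edgeR called 9 members, all lower (beside 14.4% of all genes). They were ATP5PO, COX5A, COX5B, COX7A2, COX8A, NDUFA10, NDUFA2, NDUFA4 and UQCR10. In that fit 22 members were lower at an unadjusted p under 0.05 (beside 11.1%).

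**Figure D2:**
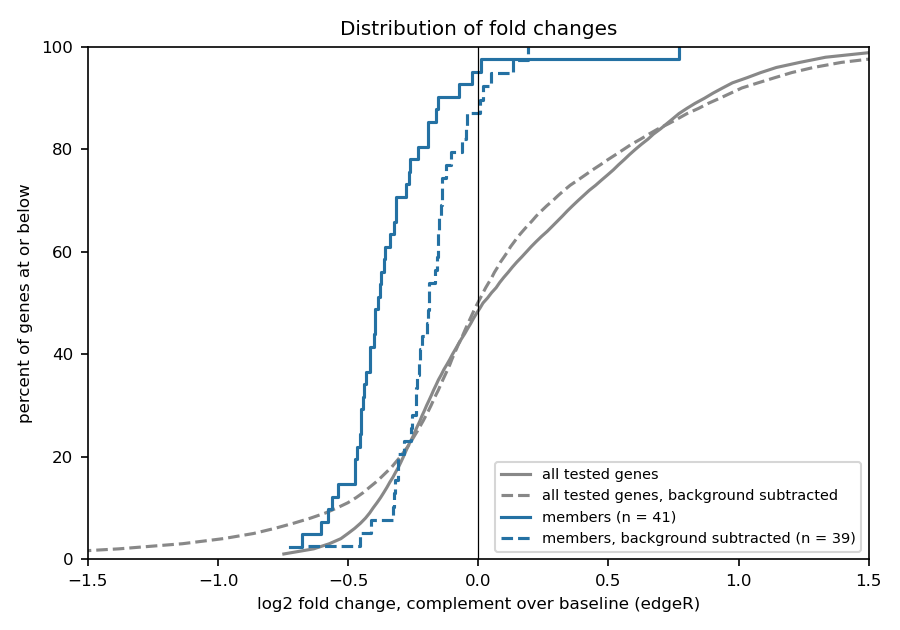
Cumulative percent of genes (y axis) at or below each log2 fold change of complement over baseline NPSC (x axis), for all tested genes (grey) and the members (blue), as counted (solid) and after subtraction of expected background (dashed). The solid blue curve has its median at −0.39 against 0.02 for the solid grey curve, and the dashed blue curve has it at −0.19.

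Complex IV had the largest share of members set apart: of its 8 genes, 5 were lower at an unadjusted p under 0.05 (beside 4.28% of all genes) and 6 had all complement libraries below baseline (beside 8.14%), with a median log2 fold change of −0.47. After subtraction of the background, which 7 of these genes allowed, 1 had an unadjusted p under 0.05, COX8A (beside 3.56% of all genes), and 3 had all complement libraries below baseline (beside 8.3%), with a median of −0.25.

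COX8A (chromosome 2, 7218448 to 7220218, minus strand, in the coordinates of the files, whose build is not named) measured 101, 108 and 135 CPM in baseline NPSC and 72.6, 71.3 and 86.3 CPM in complement NPSC. Its highest complement library lay below its lowest baseline library. The log2 fold change was −0.58 ± 0.20 (SE), with an adjusted p of 0.271 in edgeR, and −0.33 after subtraction of the background.

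COX7A2 (chromosome 1, 101816761 to 101823433, minus strand), the widely expressed isoform of subunit 7A, measured 30.2, 27.9 and 40.7 CPM at baseline and 19.1, 20.04 and 25.5 CPM with complement. Its groups did not overlap either, with a log2 fold change of −0.61 ± 0.22 and an adjusted p of 0.282 in edgeR (−0.41 after subtraction). NDUFA4 (chromosome 9, 88555977 to 88562999, minus strand) measured 72.6, 93.3 and 91.8 CPM at baseline and 56.3, 60.4 and 69.0 CPM with complement. Here complement replicate 3 came within a few CPM of baseline replicate 1, and the log2 fold change was −0.47 ± 0.19 with an adjusted p of 0.298 in edgeR (−0.22 after subtraction).

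COX5A and COX5B, subunits that sit against the matrix side of the catalytic core, had log2 fold changes of −0.54 and −0.48 (−0.32 and −0.25 after subtraction), and both had complement libraries below all baseline libraries. COX4I1, the widely expressed isoform of the largest nuclear subunit, measured 184, 195 and 212 CPM against 143, 148 and 152 CPM, with little spread within either condition. Its log2 fold change was −0.42 (unadjusted p = 0.0564 and adjusted p = 0.334 in edgeR), and −0.16 after subtraction. COX7A2L, which takes part in joining complexes III and IV into supercomplexes, measured 66.7, 74.9 and 85.9 CPM against 53.9, 59.9 and 75.2 CPM, and the groups overlapped (log2 fold change −0.27 ± 0.20, and −0.046 after subtraction). NDUFA4L2, a paralog of NDUFA4 known for its induction under hypoxia, had only 4 to 24 counts per library.

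In complex V, all 6 members had log2 fold changes below 0, from −0.56 to −0.32 with a median of −0.44. As counted 2 had an unadjusted p under 0.05 (beside 4.28% of all genes) and 2 had all complement libraries below baseline (beside 8.14%). After subtraction all 6 were below 0 with a median of −0.19, 0 had an unadjusted p under 0.05 (beside 3.56%) and 1 had all complement libraries below baseline (beside 8.3%). ATP5PO (chromosome 13, 207336286 to 207346588, minus strand) measured 71.3, 88.9 and 93.0 CPM at baseline and 48.1, 56.3 and 67.0 CPM with complement. The groups did not overlap, and the log2 fold change was −0.56 ± 0.20 with an adjusted p of 0.272 in edgeR (−0.33 after subtraction). ATP5MC1 (chromosome 12, 25066819 to 25069489, plus strand), one of the genes for the c subunit of the proton-driven rotor ring, measured 53.3, 58.7 and 71.0 CPM against 43.6, 45.1 and 46.4 CPM. The 3 complement libraries of ATP5MC1 lay close together below baseline, with a log2 fold change of −0.44 ± 0.19 and an adjusted p of 0.307 in edgeR (−0.19 after subtraction).

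ATP5F1A (chromosome 1, 105944301 to 105955798, plus strand) had the most reads of all members, and measured 252, 338 and 441 CPM at baseline and 225, 222 and 307 CPM with complement. Complement replicate 3 lay above baseline replicate 1, and the baseline libraries themselves spanned more than the difference between the means, so the log2 fold change of −0.45 ± 0.26 had an unadjusted p of 0.105 and an adjusted p of 0.394 in edgeR (−0.20 after subtraction). ATP5IF1, the inhibitory factor that binds ATP synthase when it would run backwards and hydrolyse ATP, measured 28.1, 37.3 and 51.0 CPM against 26.7, 27.0 and 31.4 CPM (log2 fold change −0.45, and −0.24 after subtraction). ATP5MC3 (log2 fold change −0.34, and −0.11 after subtraction) and ATP5ME (−0.32, and −0.12 after subtraction) had overlapping groups as well.

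Among the 6 genes of complex III, UQCR10 (chromosome 14, 49817570 to 49820402, plus strand) had the smallest p of all members. It measured 30.0, 32.2 and 43.7 CPM at baseline and 22.0, 21.5 and 22.8 CPM with complement, so that the complement libraries nearly coincided below the baseline range. The log2 fold change was −0.68 ± 0.21, with an unadjusted p of 0.00598 and an adjusted p of 0.267 in edgeR, and it was −0.46 after subtraction of the background. The other genes of complex III had overlapping groups. UQCRC1 measured 117, 127 and 168 CPM against 93.0, 91.4 and 125 CPM (log2 fold change −0.42, and −0.19 after subtraction), and UQCRC2 measured 44.5, 56.8 and 57.5 CPM against 43.6, 39.8 and 48.8 CPM (−0.26, and −0.15 after subtraction). UQCRFS1, the Rieske iron-sulfur protein that carries electrons to cytochrome c1, had a log2 fold change of −0.28 (adjusted p = 0.476 in edgeR), and −0.165 after subtraction.

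Complex II, which also belongs to the citric acid cycle, had log2 fold changes of −0.44 for SDHD, −0.36 for SDHB and −0.32 for SDHC, and 0 of the 3 had an unadjusted p under 0.05. After subtraction these values were −0.23, −0.16 and −0.15. SDHB measured 62.9, 61.1 and 80.5 CPM at baseline and 47.0, 53.9 and 58.4 CPM with complement, without overlap (adjusted p = 0.358 in edgeR). SDHD measured 42.3, 64.6 and 70.8 CPM against 44.7, 44.4 and 41.5 CPM, where baseline replicate 1 lay within the complement range.

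Complex I was the most mixed of the complexes. Of its 18 genes, 16 had log2 fold changes below 0 (beside 48.5% of all genes), 3 had an unadjusted p under 0.05 (beside 4.28%) and 5 had all complement libraries below baseline (beside 8.14%), with a median of −0.38. After subtraction, which 17 of them allowed, 13 were below 0 (beside 50.3%), 0 had an unadjusted p under 0.05 and 4 had all complement libraries below baseline (beside 8.3%), with a median of −0.19. NDUFA2 (chromosome 2, 148302944 to 148304923, minus strand), an accessory subunit of the matrix arm, had the lowest log2 fold change of all members. It measured 13.5, 15.2 and 14.2 CPM at baseline and 7.57, 10.3 and 8.16 CPM with complement, from 34 to 108 counts per library. The groups were well separated, with a log2 fold change of −0.72 ± 0.28 and an adjusted p of 0.284 in edgeR, and the value was −0.65 after subtraction.

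NDUFB8, a membrane arm subunit whose protein is often used to follow assembled complex I, measured 43.3, 49.1 and 56.9 CPM against 36.3, 36.0 and 38.4 CPM (log2 fold change −0.43, adjusted p = 0.309 in edgeR, and −0.22 after subtraction). NDUFA10, another membrane arm subunit, measured 78.7, 70.6 and 74.7 CPM against 57.6, 42.0 and 62.2 CPM (log2 fold change −0.47, adjusted p = 0.305 in edgeR, and −0.31 after subtraction). NDUFB5 and NDUFA11 were the other complex I genes whose complement libraries all lay below baseline. The catalytic matrix arm subunits NDUFS1 and NDUFV1 had log2 fold changes of −0.40 and −0.16 (−0.28 and 0.02 after subtraction), both with overlapping groups.

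At the other end, NDUFA8, a membrane arm subunit facing the intermembrane space, measured 11.6, 12.1 and 16.7 CPM against 14.9, 15.7 and 10.2 CPM, with a log2 fold change of 0.01 ± 0.28. NDUFB6 measured 18.0, 23.2 and 16.6 CPM against 12.9, 22.7 and 21.2 CPM (log2 fold change −0.02 ± 0.27), and NDUFS6 measured 16.7, 11.5 and 10.4 CPM against 14.7, 12.6 and 7.47 CPM (−0.16 ± 0.32). In all 3 the libraries of a condition differed by more than the conditions did, and the sign of the log2 fold changes of NDUFA8 and NDUFB6 depended on the scaling. After subtraction the values were 0.19, 0.13 and −0.064. NDUFA6 had the highest log2 fold change at 0.77 ± 0.44 (2.32, 1.86 and 2.24 CPM against 4.01, 3.34 and 3.65 CPM, adjusted p = 0.391 in edgeR). These were 16, 12 and 17 counts at baseline, where 17.8, 10.4 and 12.02 would be expected as background, and 18, 14 and 21 counts with complement, where 19.1, 19.6 and 11.7 would be expected. Only in complement replicate 3 and baseline replicates 2 and 3 did the count exceed the expected background.

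**Figure D3:**
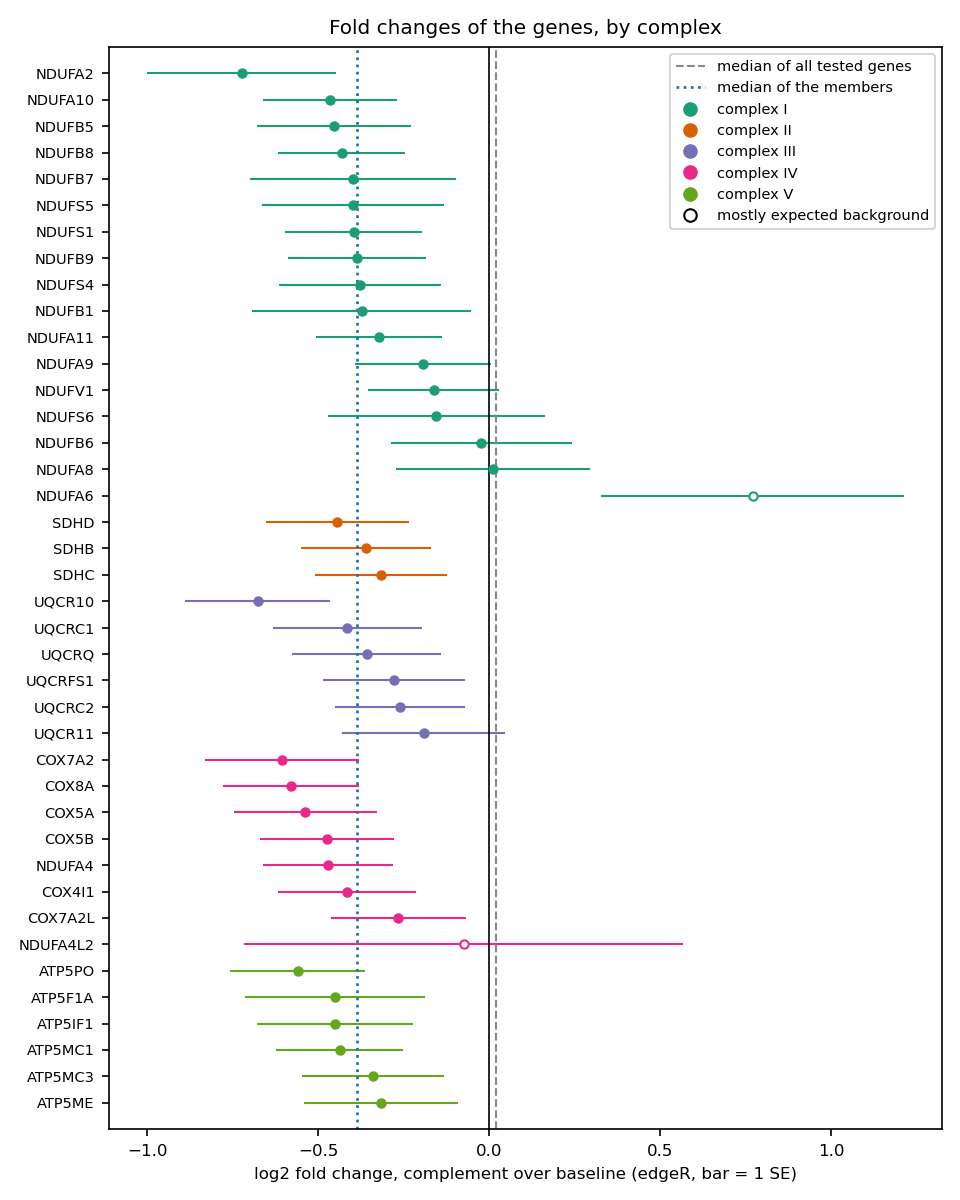
Log2 fold change of complement over baseline NPSC (x axis) for 40 of the 41 genes (y axis), colored by complex, with bars of 1 SE from edgeR and open circles for genes whose counts are mostly expected background. Of the 40 points 38 lie left of 0, around the dotted line at the median of −0.39, and the bar of NDUFA6 alone lies wholly to the right.

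The 6 libraries did not split evenly by condition. Relative to each gene's baseline mean, the median of the 39 members above background was −0.19, −0.01 and 0.23 on the log2 scale in baseline replicates 1, 2 and 3, and −0.51, −0.41 and −0.23 in complement replicates 1, 2 and 3. Baseline replicate 1 and complement replicate 3 were thus next to each other. Baseline replicate 3 was the highest of the 6 libraries for 31 members, and complement replicates 1 and 2 were the lowest for 21 and 13. No complement library was the highest for any of the 39. The densities of olfactory receptor counts in the same order of libraries were 2.15, 1.20 and 1.18, and 4.01, 4.43 and 1.51 CPM per kilobase, and their part in these positions was not tested. The median coefficient of variation between replicates was 16.0% in baseline and 13.7% in complement NPSC, where counting error alone would give 5.20% and 6.92%.

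**Figure D4:**
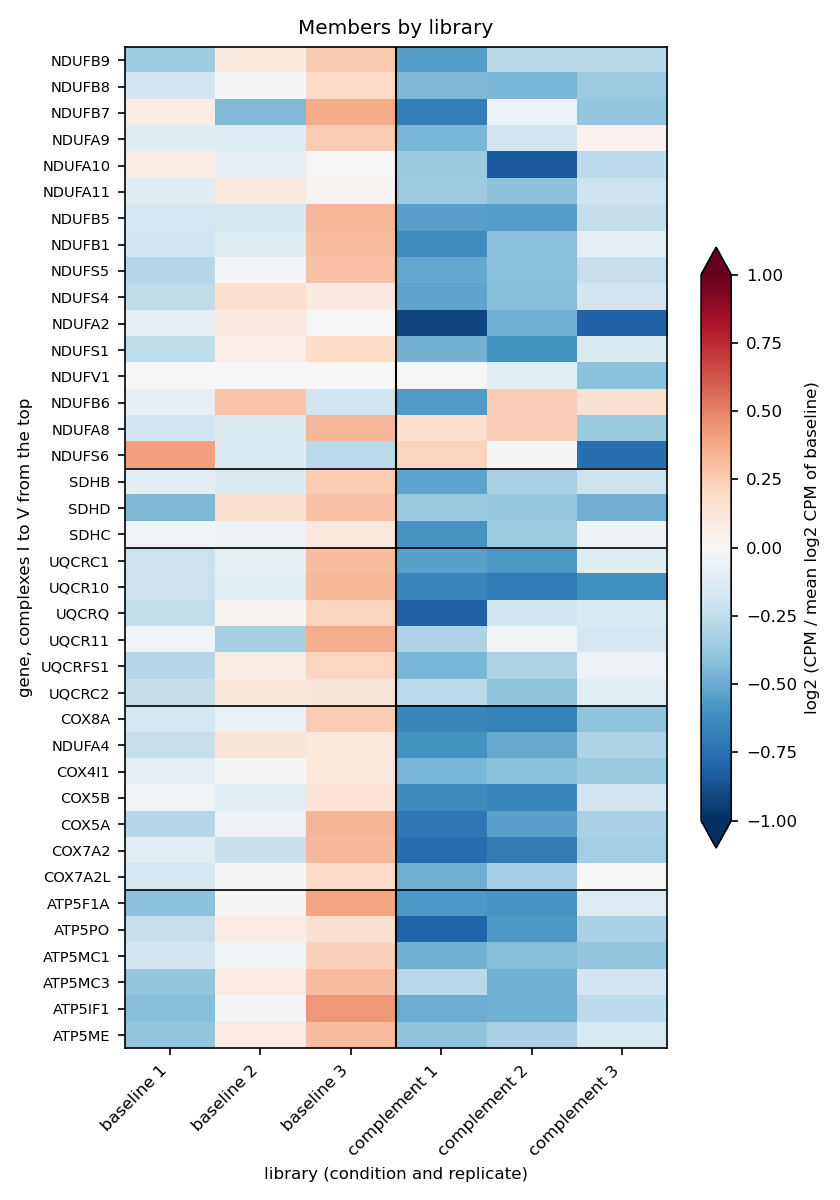
Log2 of CPM over the mean log2 CPM of the baseline libraries for 38 members (rows, complexes I to V from the top) in each library (columns), with red above and blue below the baseline mean. Complement replicates 1 and 2 are blue for most genes, complement replicate 3 is paler, and baseline replicate 3 is red for most.

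As a share of all counts, which does not use the TMM scaling, the 41 genes together took 2206, 2241 and 2649 CPM of the library total at baseline and 2033, 2109 and 1932 CPM with complement. As counted the groups did not overlap, with a mean of 2365 ± 247 against 2025 ± 88.7 (SD, n = 3) and a ratio of 0.856. The library totals themselves hold expected background, 9.95%, 5.55% and 5.47% at baseline and 18.5%, 20.5% and 6.98% with complement. With it taken from the genes and from the totals, the shares were 2334, 2311 and 2742 CPM against 2258, 2384 and 1999 CPM, the groups overlapped and the ratio was 0.899. With it taken from the totals alone the groups overlapped as well, at a ratio of 0.948. On the TMM scale, which sets the library size by the bulk of the genes, the ratio was 0.760. By complex, the ratio of the shares was 0.901 for complex I, 0.872 for complex II, 0.880 for complex III, 0.819 for complex IV and 0.829 for complex V. As counted the libraries of the conditions were separated in complex IV and overlapped in complexes I, II, III and V, and with the background taken out they overlapped in all 5. Without baseline replicate 3 the ratio for all members was 0.911.

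The 13 proteins that mitochondrial DNA encodes, the partners of these subunits, took 65673, 73869 and 50332 CPM of the library total at baseline and 64257, 64570 and 65970 CPM with complement, a ratio of 1.03. The complement libraries lay within the baseline range, and baseline replicate 3, which was highest for the nuclear members, was lowest here. Fitted log2 fold changes were below 0 for 12 of these 13 genes with a median of −0.12, and 0 had an unadjusted p under 0.05 in edgeR. After subtraction 0 of the 13 were below 0 and the median was 0.16, so no direction can be given for them. The counts on these proteins were 29.8, 33.0 and 19.0 times those on the nuclear members in the baseline libraries and 31.6, 30.6 and 34.1 times in the complement libraries, so the groups overlapped.

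**Figure D5:**
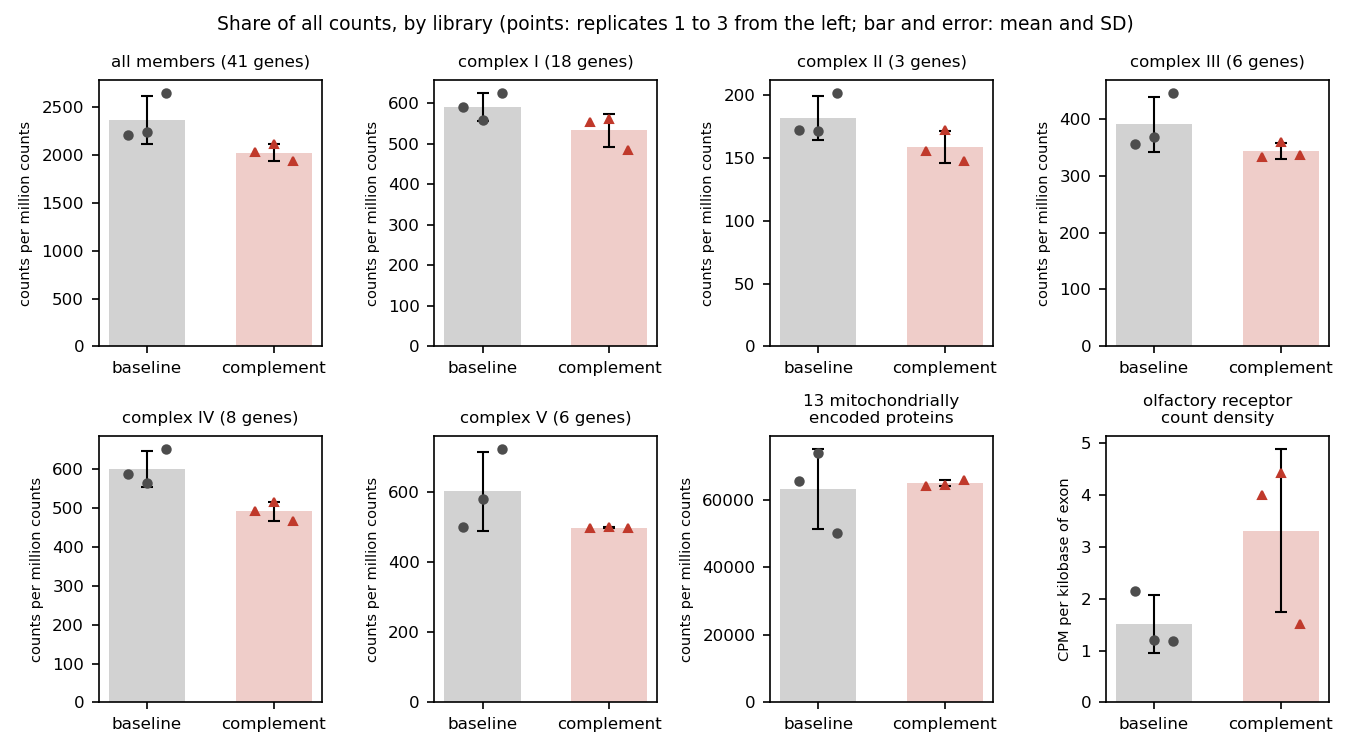
CPM of the library total on all members, on each complex and on the 13 mitochondrially encoded proteins, and the olfactory receptor density in CPM per kilobase, by condition (points, libraries; bars, mean; error bars, SD). The points of all members, with background included, do not overlap between conditions (2206 to 2649 against 1932 to 2109), while those of the mitochondrially encoded proteins do.

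Within 2 pairs of related genes, shares were compared by CPM per kilobase, with exact two-sided permutation tests whose smallest possible p is 0.1. COX7A1 and ATP5MC2, planned for the same groups, are not among the members, so the shares cover only the measured genes. COX7A2 made up 51.2%, 46.4% and 52.4% of the sum with COX7A2L at baseline and 45.2%, 43.8% and 44.1% with complement. The complement shares all lay below the baseline shares (50.01% ± 3.21 against 44.4% ± 0.775, exact p = 0.1, Benjamini-Hochberg adjusted over the 2 pairs 0.2). ATP5MC1 made up 60.0% ± 2.92 of the sum with ATP5MC3 at baseline and 58.2% ± 2.37 with complement (SD, n = 3 each, exact p = 0.5, adjusted 0.5).

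The members are short genes, with a median exon length of 902 bp (316 to 5592 bp) against 1784 bp over all tested genes. Across the 39 members above background, longer genes had less negative log2 fold changes (Pearson's r 0.30, Spearman's rho 0.37, over genes of the same libraries), and over all tested genes the sign was opposite (r −0.13, rho −0.14). After subtraction of the background r among the members was 0.22 and rho was 0.31.

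Genes of related mitochondrial functions, in lists chosen by function, also had 0 genes called in edgeR (beside 0.103% of all genes) and 0 called in DESeq2's Wald test. The mitochondrial ribosomal proteins, which translate the mitochondrially encoded subunits, came closest to the members as counted, though not after subtraction. Of 42 tested, 41 had log2 fold changes below 0 (beside 48.5% of all genes), 11 were lower at an unadjusted p under 0.05 (beside 4.28%), and the median was −0.34. After subtraction 37 were below 0 (beside 50.3%), 4 were lower at an unadjusted p under 0.05 (beside 3.56%), and the median was −0.29. Their most abundant genes were MRPL17 (125 ± 20.6 against 92.6 ± 14.9 CPM) and MRPL28 (85.0 ± 18.7 against 58.0 ± 8.68 CPM). In the citric acid cycle and pyruvate dehydrogenase list, which feeds NADH to complex I, 14 of 15 were below 0 with a median of −0.34 (all 15 and −0.23 after subtraction). It was led by OGDH (486 ± 64.9 against 374 ± 107 CPM) and MDH2 (325 ± 77.7 against 234 ± 65.6 CPM), and 2 of its genes, IDH3G (log2 fold change −0.64) and SUCLG1 (−0.51), had an unadjusted p under 0.05 (13.3% of the list, beside 4.28% of all genes), and 1 of the 15 did after subtraction (beside 3.56%). These 2 and the others named for an unadjusted p in these lists were chosen after their values were seen.

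The electron carriers and exchange proteins had 9 of 10 below 0, a median of −0.26 (7 of 10 and −0.079 after subtraction) and 0 at an unadjusted p under 0.05, with the phosphate carrier SLC25A3 (310 ± 73.9 against 264 ± 60.3 CPM) and the outer membrane pore VDAC1 (210 ± 46.4 against 174 ± 37.9 CPM) the most abundant. Of 8 coenzyme Q synthesis genes 7 were below 0 (median −0.18, and −0.17 after subtraction). COQ2, which joins the ring to its isoprene tail, was lower at an unadjusted p under 0.05 (67.0 ± 6.48 against 48.0 ± 7.41 CPM) but not after subtraction, where 0 of the list were, and COQ4 measured 60.1 ± 1.58 against 50.6 ± 8.13 CPM. Of 23 assembly factors 17 were below 0, with a median of −0.14 (15 of 22 and −0.13 after subtraction). The most abundant of them were TTC19 (136 ± 4.17 against 123 ± 32.9 CPM), a complex III factor, and ACAD9 (71.9 ± 8.43 against 54.9 ± 7.70 CPM), a complex I factor. TMEM70, which helps assemble ATP synthase, was 1 of the 23 at an unadjusted p under 0.05 in edgeR, or 4.35% of the list, near the 4.28% of all genes (17.4 ± 1.22 against 10.0 ± 2.00 CPM, log2 fold change −0.79).

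The regulators of mitochondrial biogenesis had 7 of 11 below 0, a median of −0.01 (6 of 11 and −0.0082 after subtraction) and 0 at an unadjusted p under 0.05. They were led by the coactivator PPRC1 (411 ± 36.9 against 368 ± 113 CPM) and the mitochondrial DNA polymerase POLG (118 ± 6.22 against 106 ± 4.88 CPM), and PPARGC1A had 0 counts in all libraries. Among 19 glycolysis genes 13 were below 0 with a median of −0.21 (12 and −0.089 after subtraction). PKM (1652 ± 350 against 1175 ± 306 CPM) and GAPDH (641 ± 137 against 481 ± 108 CPM) were the most abundant. HK2, the inducible hexokinase, was higher at an unadjusted p under 0.05, as 1 of the 19 or 5.26% of the list beside 10.9% of all genes (72.5 ± 10.8 against 97.7 ± 9.12 CPM, log2 fold change 0.43). After subtraction 2 of the 19 were higher at an unadjusted p under 0.05, beside 6.41% of all genes.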

How the data were processed

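RNA sequencing counts of 6 NPSC libraries were used. The authors deposited raw counts per gene, not normalized, with exon coordinates and a Length column (summed exon length). The submitters' processing notes name Trimmomatic 0.36, STAR 2.5.2b and featureCounts of Subread 1.5.2. Genome build, strand setting and the treatment of reads that match several places are not given in the sources used here, and processed pseudogenes, which many of these genes have, could share their reads. Symbols came from a table of gene identifiers and matched 11804 of 25149 rows.

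Counts were analysed in edgeR 4.0.16 (R 4.3.3) with filterByExpr, TMM normalization, glmQLFit and glmQLFTest on all 6 libraries without covariates. The 17512 genes that passed the filter, all 41 members among them, were adjusted together by Benjamini-Hochberg and called at an adjusted p under 0.05. CPM are counts over the TMM effective library size, except that olfactory receptor densities and shares of all counts are over the library total. Expected background is exon length times the count density of 48 olfactory receptor genes (45945 bp). It was subtracted, or its log2 density used as a covariate, in 2 alternatives, which share the assumption that background is even over exons. DESeq2 1.42.0 was another alternative. Counting error limits genes with few counts. The procedure was also run on simulated counts, with the same dispersion for every gene and no difference in background between libraries. That run cannot show how the procedure handles the background found here. Plots were drawn with matplotlib 3.10.9.

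The members and all lists were chosen with earlier results of these data known. Genes named are called members, in each complex the 2 highest and the 1 lowest by baseline level, the 5 highest and 5 lowest log2 fold changes, genes with an isoform partner, and the 2 most abundant genes of each list. Other members were named for their role, after their values were seen. A planned search for promoter motifs was not run, and the share of NDUFA4 beside NDUFA4L2 was left out because the latter is not above background. A member that counts in the totals is not reported singly here.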

Additional observations from a re-analysis of the deposited data

How the results depend on the processing

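With DESeq2 size factors, upper-quartile factors, either other count filter, the Wald test of DESeq2 or without the 20 genes with the most counts, the number of members called stayed at 0, 8 to 14 were lower at an unadjusted p under 0.05 (beside 2.72% to 4.6% of all genes), and the median log2 fold change stayed between −0.43 and −0.27. Upper-quartile factors moved the median of all genes to 0.13, and the members lay 0.40 below it, as under TMM. Background subtraction gave 1 member at an unadjusted p under 0.05 (beside 3.56%), 9 with all complement libraries below baseline (beside 8.3%) and a median of −0.19. The density covariate gave 4 (beside 2.48%) and a median of −0.18. Leaving out 1 library at a time gave 0 to 3 members called, 1 to 24 at an unadjusted p under 0.05 (beside 1.62% and 17.8% of all genes; 20 without baseline replicate 1, beside 7.13%, 6 without baseline replicate 2, beside 2.11%, 3 without complement replicate 1, beside 2.15%, and 7 without complement replicate 2, beside 1.99%), 16 to 31 without overlap in either direction (main 16; 31 without baseline replicate 1, 30 without complement replicate 3), medians from −0.51 to −0.27 and ratios of the count share from 0.828 to 0.911. On the TMM library size that ratio was 0.760, and in alternatives chosen after seeing the data it was 0.899 with the expected background taken from the genes and the totals and 0.948 with it taken from the totals alone. The cause of these shifts was not tested.

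Single genes near 0 changed sign. NDUFA8 had −0.0084 with DESeq2 size factors, −0.0091 in the Wald test, −0.037 without the filter, −0.21 with the covariate and −0.12 to 0.18 when 1 library was left out. NDUFB6 had 0.086 with upper-quartile factors, 0.0074 with the stricter filter, 0.13 after subtraction, 0.12 with the covariate, and 0.11 and 0.20 without baseline replicate 2 and complement replicate 1. COX7A2L had 0.014 with the covariate. NDUFA4L2 had 0.045 with upper-quartile factors, and −0.49 to 0.60 when 1 library was left out. NDUFS6 had −0.35 to 0.065 when 1 library was left out.

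Libraries carry the same replicate numbers in both conditions. The correlation of deviations from the condition means was 0.456, 0.0302 and 0.482 for replicates 1, 2 and 3. Replicates 1 and 3 correlated most with the library of their own number. Baseline replicate 2 correlated slightly more with complement replicate 3 (0.066). The labels do not say that the numbers pair libraries, so the main fit did not use them, and these correlations do not settle whether they do. With the replicate block edgeR called 9 members, beside 14.4% of all genes, and 22 were lower at an unadjusted p under 0.05, beside 11.1% of all genes.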
